A study of Mus musculus with 20 samples.

Results

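The lymphocyte-associated microRNAs (miRNAs) described here were 5 mature miRNAs from 3 hairpins: mmu-miR-150-5p, mmu-miR-150-3p, mmu-miR-342-3p, mmu-miR-342-5p and mmu-miR-5107-5p. They were 5 of the 1915 mature names in the count table and of the 1191 names with at least 1 read. The miR-150 and miR-342 names were taken as both arms of hairpins known from lymphocytes. They were taken with earlier results of these data known, so their tests are not of names fixed beforehand. miR-5107-5p was chosen by its measured counts in these same libraries, so its values are given as a description with no test. Serum small RNA had been sequenced from female mice of 4 groups with 5 libraries each: young normal and young Ames dwarf mice of 5 to 6 months, and old normal and old Ames dwarf mice of 21 to 22 months. All groups shared the heterogeneous genetic background of the Ames dwarf stock, and the labels name no treatment. The Ames dwarf is a small, long-lived mouse that lacks growth hormone, prolactin and thyroid-stimulating hormone. The labels do not say that each library came from a separate mouse, so p-values measure the spread between these samples.

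A miRNA is cut from a hairpin RNA, and its name ends in -5p or -3p for the side of the hairpin it came from. Usually one arm is loaded onto an Argonaute protein and the other is mostly degraded, and the loaded arm represses messenger RNAs that pair with its seed. miR-150-5p is abundant in mature B and T cells, where it restrains the transcription factor Myb. miR-342-3p is made from an intron of Evl, a gene for an actin regulator, and is found in lymphoid and other blood cells. Cd74, the host gene of miR-5107, encodes the invariant chain that guides class II histocompatibility molecules in B cells and other antigen-presenting cells. Serum holds miRNAs released by many cell types, so fewer cells of a type and less RNA released per cell cannot be told apart in these libraries.

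The mature sequences below show the arms that were counted, because the results turn on the levels of the arms of a hairpin. They are RefSeq sequences of the GRCm38.p6 assembly, written 5′ to 3′, with the seed (bases 2 to 8) in capitals. RefSeq tables matched 3 of the 5 members.
mmu-miR-150-3p: cUGGUACAggccugggggauag
mmu-miR-342-3p: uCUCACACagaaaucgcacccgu
mmu-miR-342-5p: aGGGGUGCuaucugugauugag
These lie on the plus strand at chr7:45121798-45121819, chr12:108658680-108658702 and chr12:108658638-108658659. The 3 seeds differ from one another, and no other mature mouse miRNA in the RefSeq table has any of them. The Mir342 hairpin of 99 bases, with both mature arms in capitals, shows the 5p arm ahead of the loop and the 3p arm behind it.
Mir342 hairpin: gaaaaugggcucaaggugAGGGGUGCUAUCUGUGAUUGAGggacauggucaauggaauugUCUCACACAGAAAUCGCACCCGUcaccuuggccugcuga

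In the GENCODE M21 annotation of GRCm38, Mir150 occupies chr7:45121757-45121821 on the plus strand, between genes. Mir342 occupies chr12:108658620-108658718 on the plus strand inside an intron of Evl, which is transcribed in the same direction.

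Libraries held 1343137 to 4710263 miRNA counts, and 360 miRNAs passed the filter on low counts and were tested. Levels are CPM, the reads of a miRNA relative to the size of its library after TMM scaling, and a call is an adjusted p under 0.05 from the edgeR quasi-likelihood test, adjusted over all 360 miRNAs. Of the 5 members, miR-342-5p did not pass the filter. miR-5107-5p passed in the fit of all 20 libraries, which holds the old normal libraries where its counts were highest. It did not pass in fits of only the 2 groups compared, with or without old normal mice. It stayed in the main fit and in the adjustment over 360 miRNAs, but its p is not given because its values chose it. Between the old dwarf and old normal groups 95 miRNAs were called (26.4% of those tested), and in old against young normal mice 56 were called (15.6%). In young dwarf against young normal mice edgeR called 0 (0%), with 28 at an unadjusted p under 0.05 and 6 called by DESeq2. In old against young dwarf mice 2 were called (0.556%), and 2 were called in the test of whether the age effect differed between genotypes (0.556%). The comparisons of old dwarf with old normal and of old with young normal mice share the 5 old normal libraries and are not independent of each other.

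Old normal mice had the highest mean level of each miR-150 and miR-342 arm, though for miR-342-5p the counts were low and all groups overlapped. The mean of miR-5107-5p was also highest there, which is the pattern it was chosen for. How many of all tested miRNAs had their highest mean in old normal mice was not counted. The mean level in old normal serum was 2.74 times that in young normal serum for miR-150-5p and 3.65 times for miR-342-3p. It was 7.35 times for miR-150-3p, the minor arm of its hairpin. That old normal mean, 34.0 CPM, falls to 22.1 CPM without replicate 1, the highest library. The 3 rises, and the lower levels of the same 3 miRNAs in old dwarf than old normal serum, passed the test. Neither young dwarf against young normal mice nor old against young dwarf mice gave a difference that passed it for any of them.

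miR-150-5p had 1823, 572.3, 775.2, 1163 and 969.7 CPM in the 5 young normal libraries. It had 4340, 4740, 1418, 2516 and 1504 CPM in old normal mice. The lowest old normal libraries lay below the highest young normal library, so those groups overlapped. Young dwarf mice had 1362, 1214, 580.3, 660.6 and 1002 CPM, and old dwarf mice had 765, 1166, 1367, 623.6 and 756.3 CPM. In CPM every old normal library exceeded every old dwarf library, and old normal replicates 1 and 2 were the highest of all libraries. The means were 2904 ± 1561 CPM in the old normal group, then 1061 ± 480 in young normal, 963.9 ± 339.8 in the young dwarf and 935.5 ± 315.3 in old dwarf libraries (SD, n = 5 each). The neighbours in the order of the 3 lower means differed by less than their spread.

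By the edgeR test, miR-150-5p was lower in old dwarf than old normal serum, with a log2 fold change of -1.63 ± 0.38 (SE; 95% interval -2.43 to -0.84; adjusted p 0.00601). It rose with age in normal mice by a log2 fold change of 1.45 ± 0.38 (0.66 to 2.24; edgeR adjusted p 0.0161). In old dwarf against young dwarf mice the log2 fold change was -0.04 ± 0.37 (-0.82 to 0.73; edgeR adjusted p 0.997), and in young dwarf against young normal mice it was -0.14 ± 0.37 (-0.91 to 0.64; edgeR adjusted p 0.940). These intervals still allow lower levels by a factor approaching 2, and higher levels by a smaller factor. The difference between the age effects of the 2 genotypes was -1.50 ± 0.53 on the log2 scale (-2.60 to -0.39) and missed the threshold, with an edgeR adjusted p of 0.179.

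**Figure D1:**
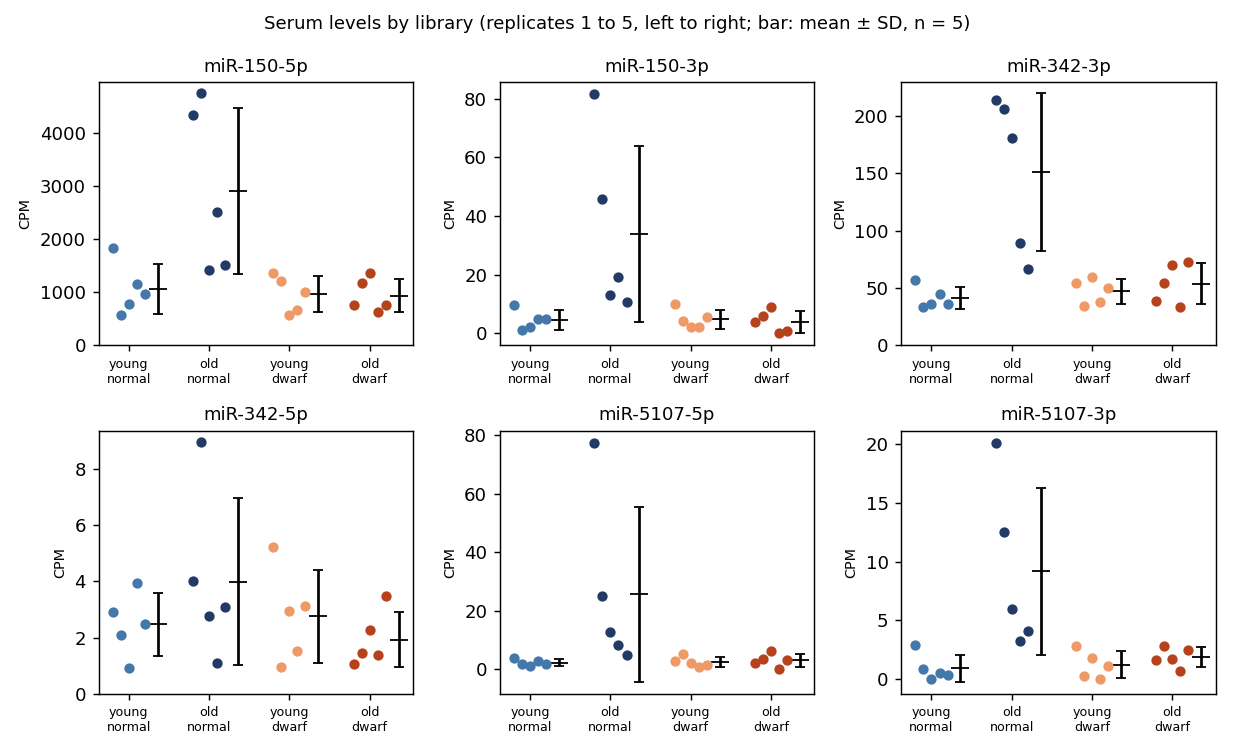
Levels of the 5 members and of miR-5107-3p in CPM (vertical axes) in each library, by group. Points are libraries and bars are the mean ± SD of 5 libraries. The old normal libraries reach the highest values in every panel, 4740 CPM for miR-150-5p and 214.2 CPM for miR-342-3p.

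miR-342-3p had 56.8, 33.1, 36.3, 44.5 and 36.3 CPM in young normal mice. In old normal mice it had 214.2, 206, 180.4, 89.3 and 66.3 CPM. In CPM each old normal library was above each young normal library. Young dwarf mice had 54.6, 34.3, 59.5, 37.5 and 50.3 CPM, and old dwarf mice had 38.8, 54.1, 70.4, 33.4 and 72.5 CPM. Old dwarf replicates 3 and 5 exceeded the lowest old normal library, so the old groups overlapped. Means were 41.4 ± 9.58, 151.2 ± 68.7, 47.2 ± 10.9 and 53.9 ± 17.8 CPM in young normal, old normal, young dwarf and old dwarf mice (SD, n = 5 each).

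The age difference of miR-342-3p in normal mice, a log2 fold change of 1.87 ± 0.33 (1.18 to 2.55), had the smallest p of the 360 miRNAs tested, with an edgeR adjusted p of 0.00527. Between the old groups the log2 fold change, dwarf over normal, was -1.49 ± 0.32 (-2.16 to -0.81; edgeR adjusted p 0.00479). It was 0.19 ± 0.32 (-0.48 to 0.86) both in old against young dwarf mice and in young dwarf against young normal mice, with edgeR adjusted p of 0.997 and 0.895. The difference of the age effects was -1.68 ± 0.45 (-2.62 to -0.73), the fourth smallest p in that comparison, and its edgeR adjusted p was 0.131.

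miR-150-3p, the minor arm of its hairpin, was counted at 3 to 20 reads per young normal library and at 31 to 162 reads per old normal library. Its levels were 9.71, 1.26, 2.16, 5.07 and 4.94 CPM in young normal mice and 81.5, 45.7, 13.1, 19.1 and 10.6 CPM in old normal mice. Young dwarf mice had 9.96, 4.17, 2.22, 2.30 and 5.45 CPM. In CPM the lowest old normal library exceeded every library of the other groups. This depended on the TMM scaling. As a share of library counts, old normal replicate 5 (0.00085%) lay below young normal replicate 1 (0.00097%) and young dwarf replicate 1 (0.00093%). Old dwarf mice had 3.77, 6.09, 9.01, 0 and 0.994 CPM, where 0 reads in old dwarf replicate 4 allow up to 2.05 CPM (3 reads). Means were 34.0 ± 30.0 CPM in the old normal group, then 4.62 ± 3.30 in young normal, 4.82 ± 3.18 in the young dwarf and 3.97 ± 3.70 in old dwarf libraries (SD, n = 5 each).

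By the edgeR test, miR-150-3p was lower in old dwarf than old normal serum, with a log2 fold change of -3.04 ± 0.74 (-4.58 to -1.50; adjusted p 0.0076). It rose with age in normal mice by 2.87 ± 0.72 (1.37 to 4.38; edgeR adjusted p 0.0126). The 2 comparisons outside old normal mice gave -0.23 ± 0.75 (old against young dwarf; edgeR adjusted p 0.997) and 0.06 ± 0.72 (young dwarf against young normal; edgeR adjusted p 0.987). The age effects differed by -3.10 ± 1.03 (-5.25 to -0.95; edgeR adjusted p 0.175).

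The 3 tested members of miR-150 and miR-342 were called in both comparisons with old normal mice and in neither of the others. Among all 360 miRNAs 26.4% and 15.6% were called in the comparisons with old normal mice. The share called in both was not counted, and these comparisons share the old normal libraries. miR-150-5p and miR-150-3p also come from the same hairpin. miR-150-5p and miR-150-3p did not overlap between old dwarf and old normal libraries and were lower in dwarf mice, which held for 17 of the 360 miRNAs (4.72%). miR-150-3p and miR-342-3p did not overlap between old and young normal libraries and were higher in old mice, which also held for 17 miRNAs (4.72%). These separations are in CPM after TMM scaling. As a share of library counts, only that of miR-150-3p between the old groups remained. miR-150-5p had 0.0955% in old normal replicate 3 and 0.0961% in old dwarf replicate 1. miR-342-3p had 0.00529% in old normal replicate 5 and 0.00565% in young normal replicate 1. Leaving out any 1 library kept the calls of all 3 members in both comparisons, with edgeR adjusted p of at most 0.0485. In a fit of only the young and old normal libraries the age difference of miR-150-5p missed the threshold (edgeR adjusted p 0.0559), and all of these calls were lost with a haemolysis index as a covariate, as described further on.

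**Figure D2:**
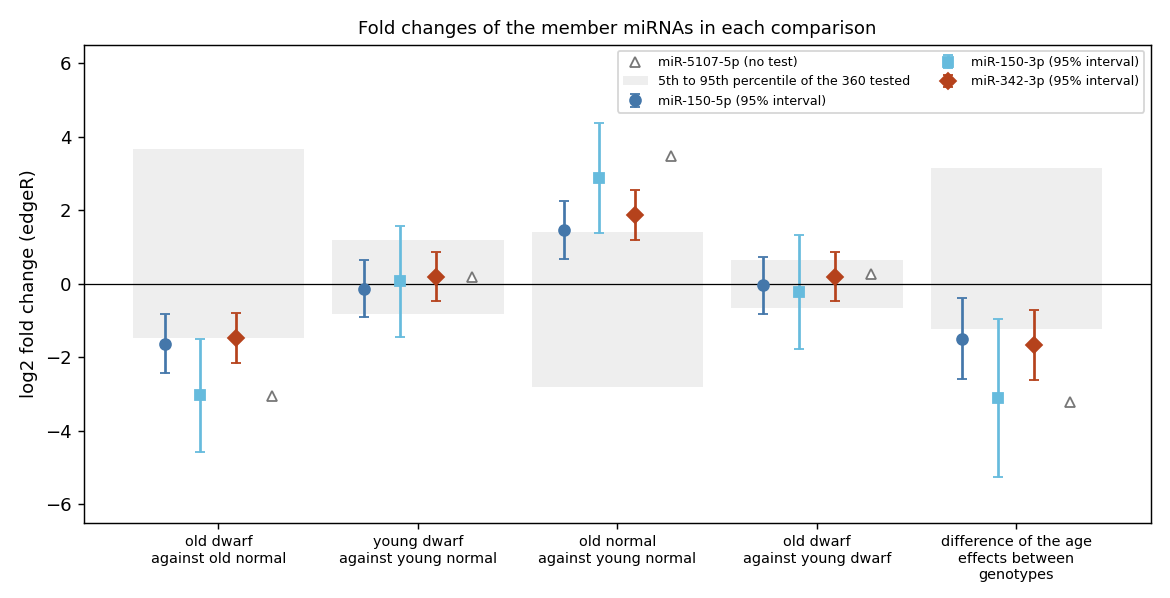
Log2 fold changes in the comparisons of groups and in the difference of the age effects (horizontal axis). Bars are 95% intervals for miR-150-5p, miR-150-3p and miR-342-3p, and an open triangle marks miR-5107-5p, given with no test. A grey band spans the 5th to 95th percentile of the 360 miRNAs tested. The tested members lie away from 0 in the 2 comparisons with old normal mice and near 0 in the other 2 comparisons of groups. In the difference of the age effects they also lie away from 0, but none passed after adjustment (edgeR adjusted p 0.131 to 0.179).

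miR-342-5p, the minor arm of its hairpin, was counted at 2 to 14 reads per library. Its levels were 2.91, 2.09, 0.924, 3.94 and 2.47 CPM in young normal mice and 4.02, 8.96, 2.78, 1.09 and 3.09 CPM in old normal mice. Young dwarf mice had 5.22, 0.963, 2.96, 1.53 and 3.12 CPM, and old dwarf mice had 1.08, 1.43, 2.25, 1.36 and 3.48 CPM. All 4 groups overlapped. The highest library, old normal replicate 2, was the only one above 5.22 CPM. Means were 2.47 ± 1.11, 3.99 ± 2.97, 2.76 ± 1.65 and 1.92 ± 0.974 CPM in young normal, old normal, young dwarf and old dwarf mice (SD, n = 5 each). No test was run at this depth.

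The arms of a hairpin are compared within a library, which needs no scaling between libraries. Over all 5 young normal libraries, miR-150-5p had 14523 reads and miR-150-3p 62. The old normal libraries had 26491 and 312, the young dwarf libraries 12522 and 60, and the old dwarf libraries 9536 and 42. The 3p arm was thus 1.16% of the hairpin's reads in old normal mice and 0.425% to 0.477% in the other groups. The log2 ratio of 5p to 3p reads (each plus 0.5) was 7.52, 8.61, 8.39, 7.80 and 7.57 in young normal libraries. In old normal libraries it was 5.73, 6.68, 6.73, 7.02 and 7.12, below every young normal and every old dwarf library. In young dwarf libraries it was 7.06, 8.13, 7.92, 8.05 and 7.47, which overlaps the old normal range at its low end.

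The mean ratio of miR-150 was 6.66 ± 0.55 in old normal mice and 7.98 ± 0.50 in young normal mice (SD, n = 5 each), a difference of -1.32 with an exact permutation p of 0.00794 (2-sided, adjusted p 0.0317 over 8 arm tests), which is the smallest value that 5 libraries against 5 allow. Old dwarf mice had 7.57, 7.54, 7.20, 10.84 and 9.25, with a mean of 8.48 ± 1.54. They exceeded old normal mice by 1.82 (exact permutation p 0.00794, adjusted 0.0317), and by 1.23 without replicate 4, whose 0 reads of the 3p arm leave its ratio set by the added count. The other 2 differences were -0.25 (young dwarf against young normal, exact permutation p 0.437, adjusted p 0.499) and 0.75 (old dwarf against young dwarf, exact permutation p 0.397, adjusted p 0.499). Thus the 3p arm of miR-150 rose more than its 5p arm between young and old normal mice. With any 1 library of the compared groups left out the adjusted p was 0.0635 in most cases. The smallest exact permutation p for 4 libraries against 5 is 0.0159, so these fits cannot show whether the result depends on 1 library. In them the difference stayed between -1.43 and -1.09 with age in normal mice.

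For miR-342 the roles of the arms are reversed, and the 3p arm dominates. Its 3p and 5p reads summed to 575 and 35 over the young normal, 1467 and 36 over the old normal, 610 and 34 over the young dwarf and 543 and 19 over the old dwarf libraries. The 5p arm was thus 5.74%, 2.40%, 5.28% and 3.38% of the hairpin's reads in these groups. The log2 ratio of 5p to 3p reads was -4.07 ± 0.62 in young normal and -5.28 ± 0.82 in old normal mice, a difference of -1.21 (exact permutation p 0.0476, adjusted p 0.127 over 8 arm tests). It was -4.18 ± 0.60 in the young dwarf and -4.67 ± 0.35 in old dwarf mice (SD, n = 5 each). The 3p arm's larger share in old normal mice therefore did not pass after adjustment.

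**Figure D3:**
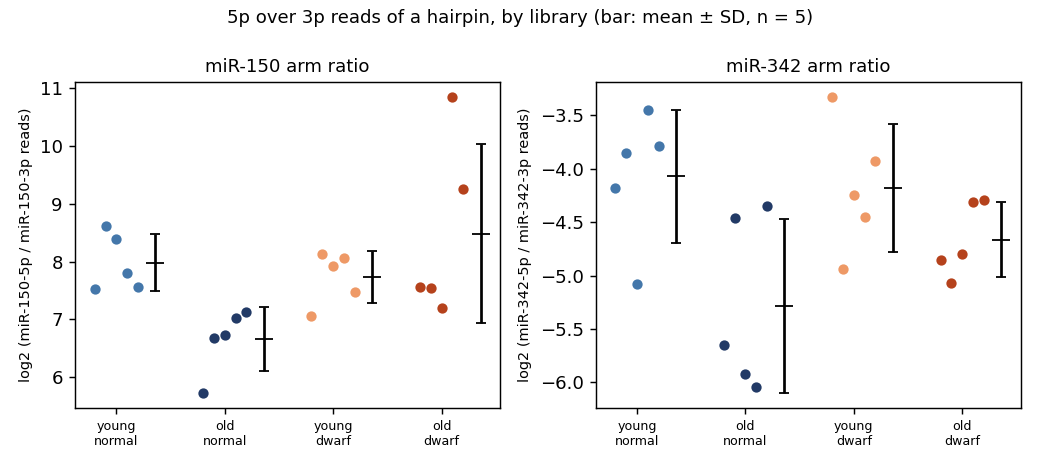
Log2 ratio of 5p to 3p reads of the miR-150 and miR-342 hairpins in each library (vertical axis), by group, with group means. For miR-150 the old normal libraries sit between 5.73 and 7.12, under the young normal and old dwarf libraries.

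Mir5107 lies at chr18:60812076-60812163 on the plus strand of GRCm38, inside Cd74 (chr18:60803848-60812652, plus strand), where it overlaps both coding exon and UTR sequence. miR-5107-5p had 3.88, 1.67, 1.23, 2.81 and 1.76 CPM in young normal mice and 77.4, 25.1, 12.7, 8.17 and 4.81 CPM in old normal mice. Old normal replicate 1 was well above the others, and the mean of the old normal group, 25.6 ± 30.0 CPM, falls to 12.7 CPM without it. In young dwarf mice it had 2.85, 5.13, 2.22, 0.766 and 1.56 CPM and in old dwarf mice 2.15, 3.58, 6.20, 0 and 2.98 CPM. Counts were between 0 and 16 in the groups other than old normal. The means of those groups were 2.27 ± 1.07 (young normal), 2.50 ± 1.66 (young dwarf) and 2.98 ± 2.25 CPM (old dwarf; SD, n = 5 each).

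The old dwarf and old normal libraries overlapped for miR-5107-5p, while old and young normal libraries did not overlap in CPM. As a share of library counts, miR-5107-5p had 0.000384% in old normal replicate 5 and 0.000386% in young normal replicate 1, an overlap. Its fitted log2 fold change was -3.05 between the old groups, dwarf over normal, and 3.48 in old against young normal mice, the lowest and the highest of the 360 miRNAs in those comparisons. This is the pattern by which it was chosen. Without the library that matters most, old normal replicate 1, the same values were -1.995 and 2.42. In old against young dwarf mice the log2 fold change was 0.26, and in young dwarf against young normal mice 0.17.

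The other arm, miR-5107-3p, is not a member and was looked at after its values were seen. Its counts were low and showed a similar order of groups, with 20.1, 12.5, 5.96, 3.27 and 4.12 CPM in old normal mice. Its means were 0.933 ± 1.15, 9.20 ± 7.10, 1.24 ± 1.16 and 1.87 ± 0.848 CPM in young normal, old normal, young dwarf and old dwarf mice (SD, n = 5 each). In the authors' deposited table of hairpin predictions over all samples pooled, the Mir5107 hairpin has 471 reads, of which 339 are of the mature arm, 132 of the star arm and 0 of the loop. Its randfold p was marked not significant in the authors' deposited table, whereas those of Mir150 (63543 reads) and Mir342 (3319 reads) were marked significant.

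The haemolysis index, the log2 ratio of the red-cell miRNA miR-451a to miR-23a-3p, moved with these results. It was 4.30 ± 0.70 in the old normal group, against 5.45 ± 0.61 in young normal, 5.40 ± 0.43 in the young dwarf and 5.38 ± 0.44 in old dwarf libraries (SD, n = 5 each). Old dwarf exceeded old normal mice by 1.08 (exact permutation p 0.00794, adjusted p 0.0317), and old normal fell below young normal mice by 1.15 (exact permutation p 0.0238, adjusted p 0.0476). The index was thus lower in the old normal group than in either group compared with it here, and its part in these results cannot be told apart from that of age and genotype. With the index as a covariate, edgeR called none of the 3 tested members in either comparison, and called 0 and 1 of all 360 miRNAs. The log2 fold changes between the old groups, dwarf over normal, were -0.93 for miR-150-5p (edgeR adjusted p 0.185), -1.22 for miR-342-3p (0.093) and -2.37 for miR-150-3p (0.0989). In old against young normal mice they were 0.71, 1.58 and 2.10 (edgeR adjusted p 0.413, 0.107 and 0.244).

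Ratios of the members to a red-cell and a myeloid miRNA within each library need no scaling between libraries. They also carry the change of the reference: miR-451a averaged 18409 ± 5950 CPM in the old normal group, 36605 ± 13087 in young normal, 32903 ± 8664 in the young dwarf and 30615 ± 6767 in old dwarf libraries (SD, n = 5 each), with a log2 fold change of -0.99 ± 0.28 with age in normal mice (edgeR adjusted p 0.0198). The log2 ratio of miR-150-5p to miR-451a was -2.76 ± 1.31 in the old normal group, against -5.15 ± 1.02 in young normal, -5.13 ± 0.89 in the young dwarf and -5.07 ± 0.77 in old dwarf libraries (SD, n = 5 each). Old dwarf libraries, from -6.04 to -4.19, lay below all old normal libraries, from -4.03 to -0.83, a difference of -2.31 (exact permutation p 0.00794, adjusted p 0.0423 over 16 ratio tests). The rise in normal mice, 2.39, had an exact permutation p of 0.0238 (adjusted p 0.0762). For miR-342-3p over miR-451a the old dwarf group was 2.19 lower than the old normal group and the old normal group 2.75 higher than the young normal group (exact permutation p 0.00794 and adjusted p 0.0423 for each).

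Relative to miR-223-3p, a miRNA of granulocytes, monocytes and platelets, the differences were smaller. miR-223-3p itself was 468.9 ± 134.6, 574.5 ± 165.1, 382.9 ± 132.8 and 337.7 ± 187.7 CPM in young normal, old normal, young dwarf and old dwarf mice (SD, n = 5 each). The log2 ratio of miR-150-5p to miR-223-3p was 1.11 ± 0.39 in young normal and 2.22 ± 1.15 in old normal mice, with old normal values of 3.82, 2.99, 1.36, 1.81 and 1.10, and the difference of 1.11 had an exact permutation p of 0.0794 (adjusted p 0.181). In old dwarf mice it was 1.56 ± 0.41, or 0.65 below old normal mice (exact permutation p 0.310, adjusted p 0.495). For miR-342-3p the old normal group was 1.47 higher than the young normal group (exact permutation p 0.0159, adjusted p 0.0635), and the old dwarf group was 0.54 lower than the old normal group (exact permutation p 0.421, adjusted p 0.561). Thus neither ratio to miR-223-3p passed its threshold after adjustment.

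**Figure D4:**
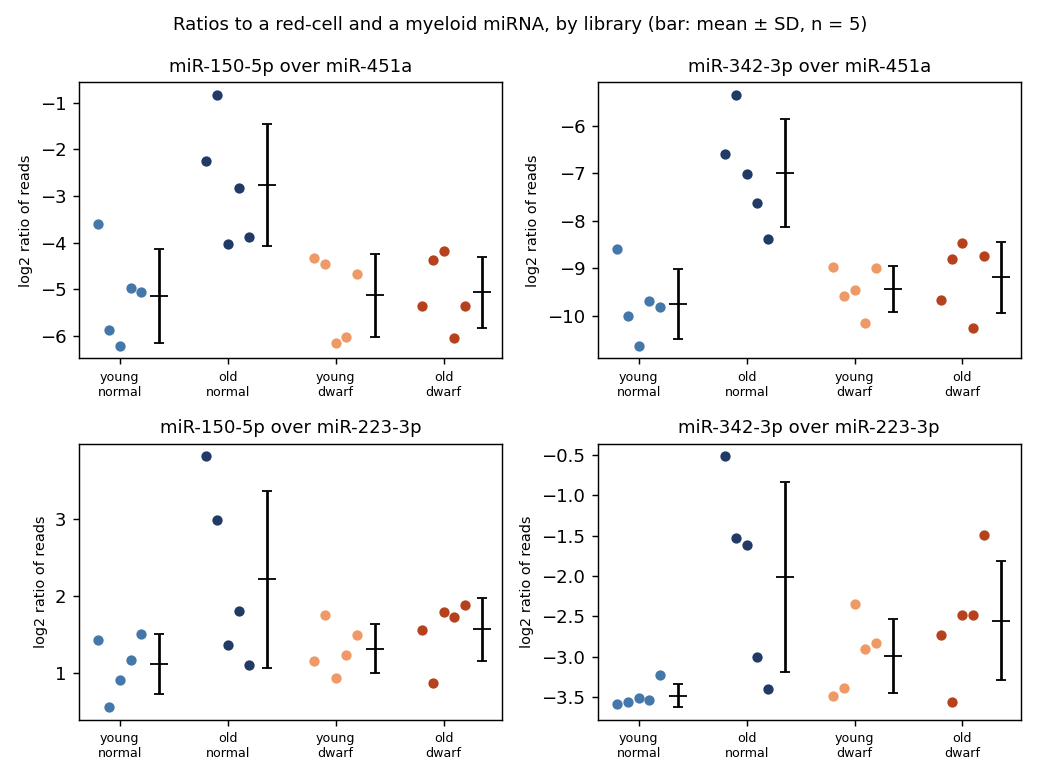
Log2 ratios of miR-150-5p and miR-342-3p to miR-451a and to miR-223-3p in each library (vertical axes), by group, with group means. Old normal libraries lie above the old dwarf libraries in both ratios to miR-451a, whereas in the ratios to miR-223-3p the old groups overlap.

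The red-cell list (6 miRNAs) had 1 member, miR-451a, that fell with age in normal mice, beside 15.6% called among all 360 miRNAs. At an unadjusted p under 0.05 there were 3 of the 6, beside 138 of all 360. Not all members had its sign: in the same comparison the log2 fold changes of miR-486a-5p and miR-363-3p, which did not pass, were 0.59 ± 0.30 and 0.96 ± 0.50 (edgeR adjusted p 0.147 and 0.154). Between the old groups edgeR called 0 of this list, with 5 at an unadjusted p under 0.05, beside 163 of all 360. The list of myeloid and platelet miRNAs (8) had miR-191-5p and miR-223-5p lower in old dwarf than old normal serum and miR-191-5p higher in old than in young normal mice. These 2 of 8 and 1 of 8 stand beside 26.4% and 15.6% called among all 360 miRNAs. Its summed level was 66475 to 87665 CPM in old normal libraries and 29767 to 71679 CPM in old dwarf libraries. It was 30127 to 61012 CPM in young normal and 32417 to 57375 CPM in young dwarf libraries. In old normal libraries miR-191-5p averaged 40193 CPM of a mean sum of 77043 CPM. The summed red-cell list was 390382 to 581867 CPM in old normal, 304863 to 569827 CPM in old dwarf, 230773 to 526907 CPM in young normal and 207843 to 392494 CPM in young dwarf libraries. Most of this sum was miR-486a-5p, with a mean of 392032 CPM of 460370 CPM in old normal libraries. Its mean and that of miR-363-3p were highest in that group. The other red-cell miRNAs listed, miR-451a among them, had their lowest means there. The liver list (5 tested) and the muscle list (4 tested) had none called by edgeR in any of the 4 comparisons. At an unadjusted p under 0.05 these numbered 3 and 1 between the old groups, 1 and 2 with age in normal mice, 4 and 0 between the young groups, and 0 and 0 with age in dwarf mice. Among all 360 miRNAs the numbers were 163, 138, 28 and 14 in the same order of comparisons. The part of other cell types in the results was not tested. Each of the 7 lymphocyte markers, the miR-150 and miR-342 arms with miR-155-5p, miR-181a-5p and miR-146a-5p, had reads in every group.

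Other miRNAs known from activated or developing lymphocytes were listed separately. Of 16 listed, 13 were tested. Old dwarf mice had 3 lower and 0 higher than old normal mice, with a median log2 fold change of -0.54 against -0.06 over all 360 miRNAs, and 12 of the 13 were lower in sign. Among all 360 miRNAs 26.4% were called (37 lower and 58 higher), so the count of calls on the list was near the background, and 52.2% were lower in sign. Old normal mice had 3 higher and 0 lower than young normal mice, with a median of 0.57 against 0.00. Among all 360 miRNAs 15.6% were called, 18 higher and 38 lower. Without old normal replicate 1 the counts were 0 lower in old dwarf mice (median -0.35) and 2 higher with age in normal mice (median 0.56). In the 2 comparisons without old normal mice edgeR called 0, and the medians were 0.04 (young groups) and 0.02 (dwarf mice with age). At an unadjusted p under 0.05 the listed miRNAs numbered 1 and 0, beside 28 and 14 of all 360.

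miR-146a-5p, which restrains Toll-like receptor and NF-kappa B signalling, had the strongest change: 2.65 ± 0.58 with age in normal mice (edgeR adjusted p 0.0115) and -2.27 ± 0.58 between the old groups, dwarf over normal (edgeR adjusted p 0.0103). Its old normal mean of 536 ± 762 CPM (SD, n = 5) spans 129 to 1896 CPM, so that 1 library carries the mean. Without old normal replicate 1 the same values were 1.19 (edgeR adjusted p 0.0383) and -0.82 (edgeR adjusted p 0.0563). miR-155-5p, made in activated lymphocytes, was 1.75 ± 0.40 (edgeR adjusted p 0.0115) and -1.35 ± 0.40 (edgeR adjusted p 0.0196), and without that library 1.18 (edgeR adjusted p 0.0383) and -0.78 (edgeR adjusted p 0.0988). miR-181a-5p, which tunes the sensitivity of T cell receptors, rose by 0.70 ± 0.24 in old against young normal mice (edgeR adjusted p 0.0487), and this call was lost in 15 of 20 fits with 1 library left out. miR-181b-5p was 1.07 lower in old dwarf than old normal serum (± 0.35, edgeR adjusted p 0.0314), lost in 8 of those 20 fits.

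**Figure D5:**
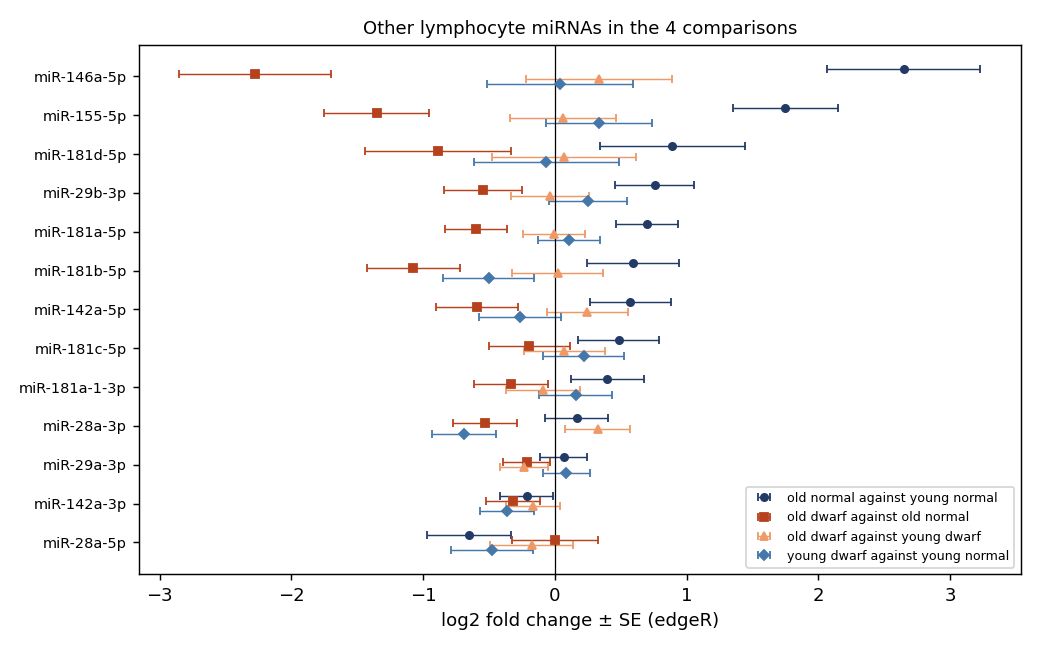
Log2 fold changes ± SE of the 13 other lymphocyte miRNAs in 4 comparisons (horizontal axis). Most lie above 0 in old against young normal mice and below 0 in old dwarf against old normal mice, while the other 2 comparisons scatter around 0.

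The miRNAs whose levels followed those of a member most closely over the 20 libraries were compared by the mean absolute difference of their centred log2 CPM, with the members' other arms left out. For miR-150-5p these were let-7d-3p (0.29), miR-1249-3p (0.32), miR-181b-5p (0.34), miR-425-5p (0.34) and miR-671-3p (0.37), against a median of 0.77 over all tested miRNAs. miR-150-5p itself was the closest to miR-342-3p (0.38, median 0.81), ahead of miR-671-3p (0.39), miR-21a-3p (0.40), miR-1249-3p (0.40) and miR-3057-5p (0.44). For miR-5107-5p the closest were miR-150-3p (0.63), miR-342-3p (0.70) and miR-150-5p (0.71), against a median of 1.29. Because miR-5107-5p was chosen for its pattern, this closeness is no support for a link between them. Seen from miR-150-5p, miR-342-3p ranked 8, miR-5107-5p 143 and miR-150-3p 160 (0.73) among the tested miRNAs. Seen from miR-342-3p, miR-5107-5p ranked 114 and miR-150-3p 237 (0.95). These distances are descriptive, since the libraries share group differences. They are also not corrected for the size of a change or for counting noise. miR-150-3p had 0 to 21 reads per library outside old normal mice, so its ranks do not show that the arms of miR-150 follow different patterns.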

How the data were processed

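Serum RNA of 20 samples, 5 in each of 4 groups, was extracted with miRNeasy and converted to TruSeq small RNA libraries, per the labels' protocols. The submitters' processing notes list Bowtie 0.12.8, bedtools and edgeR with the GRCm38 (mm10) build, and the role of each is not given in the sources used here. The deposited table holds whole-number counts for each mature miRNA and precursor, 1 column per sample, per the file headers, and the authors' RPM values, which equal the count divided by the column sum to within 0.005. RPM values were not used in tests. No sample column was unused (0 columns). The authors' deposited report on all samples pooled holds hairpin candidates with read numbers as other values.

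The table had 2241 rows for 1915 names, and for each name the row with the highest total was used; each member has 1 row. The count model was the edgeR 4.0.16 quasi-likelihood F test in R 4.3.3 with limma 3.58.1, using 1 coefficient per group over all 20 samples, TMM factors and a low-count filter of 10, and Benjamini-Hochberg adjustment over 360 miRNAs. The filter kept at least 99.9% of reads. The common biological coefficient of variation was 47.5%. Ratios within libraries used counts plus 0.5 and 2-sided exact permutation tests (scipy 1.17.1). Intervals cover the spread between samples or counting error only, and amplified reads are not independent molecules. The fit was tested on simulated data with 200 changed miRNAs. Positions come from GENCODE M21.

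Members and lists were chosen with earlier results of these data known. Named miRNAs are the 5 members, up to 4 of each list by smallest p, reference miRNAs and the 5 closest to a member.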

Additional observations from a re-analysis of the deposited data

Results flagged for a closer look

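One library was far from the other 4 of its group in the log2 ratio of miR-342-3p to miR-223-3p: young normal replicate 5 was at -3.23, while the others ran from -3.58 to -3.50. This was the only flag among the 44 groups checked, and chance flags about 1 in 20 groups.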

How the results depend on the processing

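Leaving out 1 library, other scalings, summed rows, no filter, DESeq2, a replicate block and a haemolysis covariate were tried. The median log2 fold change of all 360 miRNAs was 0.23, 0.18, -0.42 and -0.38 with library totals (old dwarf over old normal, young dwarf over young normal, old over young normal, old over young dwarf), against -0.06, -0.04, -0.0042 and 0.02 with TMM factors. The number of miRNAs called in old dwarf against old normal mice was 0 with the haemolysis covariate, 63 with only those groups, and 51 to 143 with 1 library left out. In old against young normal mice it was 106 with library totals, 117 with DESeq2, 1 with the covariate, 34 with only those groups and 29 to 123 with 1 library left out. In young dwarf against young normal mice it was 1 with no filter, 6 with DESeq2 and 1 with the covariate. In old against young dwarf mice it was 0 with library totals, 1 with summed rows, 0 with the replicate block, 0 with only those groups and 0 to 2 with 1 library left out. The difference of age effects had 1 with RLE factors, 0 with upper-quartile factors, 0 with library totals, 13 with no filter, 20 with DESeq2, 0 with summed rows, 0 with the block, 0 with the covariate and 0 to 3 with 1 library left out.

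With the covariate, miR-150-5p was -0.93 (edgeR adjusted p 0.185) and miR-342-3p -1.22 (0.093) between the old groups, and 0.71 (0.413) and 1.58 (0.107) with age in normal mice. With only those groups, miR-150-5p in normal mice was 1.27 (edgeR adjusted p 0.0559). The difference of age effects of miR-342-3p was -1.62 with DESeq2 (adjusted p 0.0225). With DESeq2 that of miR-150-3p also passed (-3.10, adjusted p 0.0461). Signs turned for small values: in young dwarf against young normal mice miR-150-5p was 0.11 with library totals and miR-150-3p -0.041 with the block; in old against young dwarf mice miR-150-5p was 0.047 with upper-quartile factors and 0.045 with the block, and miR-342-3p was -0.26 with library totals. With 1 library left out, old against young dwarf values ran from -0.71 to 0.20 (miR-150-3p) and -0.22 to 0.12 (miR-150-5p), and young dwarf against young normal values from -0.36 to 0.48 (miR-150-3p) and -0.30 to 0.15 (miR-150-5p). The causes were not tested.

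Ratio tests lost their adjusted threshold in most fits of 4 libraries against 5, where the smallest exact permutation p is 0.0159. The miR-150 arm ratio ran from 1.23 to 2.14 between the old groups and from -1.43 to -1.09 with age in normal mice. The miR-342 arm ratio ran from -1.47 to -1.02 in normal mice and -0.36 to 0.080 in young dwarf against young normal mice. miR-150-5p over miR-451a ran from -2.63 to -1.83 between the old groups, -0.19 to 0.31 in old against young dwarf mice and -0.25 to 0.41 in young dwarf against young normal mice. miR-342-3p over miR-451a ran from -2.54 to -1.78 between the old groups and 2.34 to 3.10 in normal mice.

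A check of replicate numbers gave no clear pairing over the 4 comparisons: 9 of 20 same-number pairs correlated above 0.1, and 4 of 20 libraries correlated best with their own number. Between young dwarf and young normal libraries the same-number correlations were 0.81, 0.25, 0.53, -0.22 and 0.33. The check cannot exclude shared batches. With a replicate block, miR-150-5p and miR-342-3p kept their calls (-1.49 and -1.44 between the old groups, 1.37 and 1.80 with age in normal mice), and 92 and 38 miRNAs were called in those comparisons. With only the groups compared, miR-5107-5p in all 4 comparisons and miR-150-3p in old against young dwarf mice did not pass the filter and had no value. Low counts limit miR-150-3p, miR-342-5p and miR-5107-5p.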
